A study of Homo sapiens with 49 samples.

Results

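SHEP-21N is a human neuroblastoma cell line in which MYCN is under TET-off control, so that doxycycline in the medium shuts the gene down. RNA of cells kept with doxycycline (0.2 µg/ml) for 16 h was compared with RNA of cells kept with it for 8 h, 3 libraries at each time. These are 6 of the 20 libraries of the SHEP-21N time course (0, 2, 4, 6, 8, 16 and 24 h), in a series of 49 samples. Both groups carry the same MYCN construct and both had doxycycline, so the comparison asks what moved in the second 8 h of the shutdown, not what the shutdown did. Hours with doxycycline, hours of MYCN loss and hours in culture rise together and cannot be told apart, and doxycycline without a shutdown was not analysed here. The labels do not say whether the 3 libraries of a time are separate cultures, so p-values measure the spread between libraries, which may be technical. No library of 8 h has the index sequence of one of 16 h; 2 of the 3 at 8 h carry indices also used at 0 h and the 3 at 16 h carry those also used at 2 h, and no label names a sequencing pool. The test covered 11867 of 23621 genes, those whose unnormalised values averaged 1 FPKM or more over the 20 libraries.

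Values are FPKM (fragments per kilobase of transcript, scaled to the mapped total) rescaled by the authors to ERCC spike-in RNA, which was added at lysis after the cells had been counted. They are called rescaled FPKM, and values of the companion table without that step are called unnormalised. Means are given ± SD with n = 3, log2 fold changes are 16 h minus 8 h of log2(FPKM + 1), which understates the change of weakly expressed genes, and adjusted p is that of limma with the Benjamini and Hochberg correction over all 11867 genes. A gene is said to have risen or fallen where adjusted p on the rescaled scale was under 0.05. The libraries of a time are numbered 0, 1 and 2 as in the deposited columns. Read numbers are unknown, since FPKM do not hold them.

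MYCN is a transcription factor of the MYC family that binds E-boxes with its partner MAX, and its amplification marks a high-risk group of neuroblastomas. SHEP cells belong to the mesenchymal, non-neuronal type of neuroblastoma line, in which signals from the matrix, from growth factors and from cell tension are relayed to genes through YAP and TEAD, SRF, AP-1 and the ERK pathway. YAP carries no DNA-binding domain and acts through TEAD factors, whose core site is GGAATG. SRF binds the CArG box and drives both early response genes and genes of contractile actin.

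MYCN itself was low at both times. Its level was 15.2, 16.0 and 12.9 rescaled FPKM in the 8 h libraries and 9.46, 14.3 and 12.3 in those of 16 h, so the groups overlapped. The log2 difference of -0.28 (SE 0.195) did not pass (adjusted p = 0.701). At 0 h MYCN stood at 789 rescaled FPKM (SD 93.4, 2 libraries). On the unnormalised scale the 8 h mean of 13.6 ± 0.332 and the 16 h mean of 10.9 ± 0.214 gave -0.29 with an adjusted p of 0.0136, so the call depends on the scale. MYC, the relative of MYCN that most cell types express, had 7.27 ± 0.811 rescaled FPKM at 8 h and 10.3 ± 2.33 at 16 h (log2 difference 0.44, adjusted p = 0.239), with 1 of the 16 h libraries within the range of 8 h. It too passed on the unnormalised scale (0.40, adjusted p = 0.00146).

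Between 8 h and 16 h, 238 of the 11867 genes rose (2.01%) and 54 fell (0.455%), 292 in all (2.46%). Small and uncharacterised RNAs apart, the 10 largest rises with no overlap between the times were ANKRD1, ABCC3, CPA4, TGM2, CTGF, EDN1, MMP3, RGS4, KLF2 and PLAU, all with means over 2 times as high at 16 h. The 10 largest falls on the same terms included HMOX1, the stress gene that breaks down heme, DDIT4, an inhibitor of mTORC1, the histone gene HIST3H2A and 3 host transcripts of small nucleolar RNAs. The median gene differed by 0.01 on the log2 scale, less than the spread of library medians, which were 3.747 ± 0.153 at 8 h and 3.792 ± 0.244 at 16 h (exact permutation test, two-sided, p = 0.8, where 3 against 3 cannot go below 0.1). Unnormalised library medians, 3.662 ± 0.00726 and 3.685 ± 0.00739, did not overlap and gave that smallest p of 0.1. At an unadjusted p under 0.05 there were 1367 genes.

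The number of genes called differed with the scale. The 16 h library numbered 0 had the lowest median of the 6 on the rescaled scale (3.53) and the one numbered 1 the highest (4.01). On unnormalised FPKM 3355 genes passed (28.3%): 1783 were higher (15%) and 1572 lower (13.2%), and with each library centred on its median 1362 (11.5%) and 1668 (14.1%), so the split between rises and falls depends on the scale. All 238 rises and all 54 falls were also called on both of these scales, in the same direction. Without 16 h number 0 there were 433 rises and 26 falls, and without 16 h number 1 there were 84 and 37. Leaving out 8 h number 0, 8 h number 1, 8 h number 2 or 16 h number 2 left 124, 186, 93 or 106 rises and 16, 19, 38 or 24 falls. In all, 81 of the 238 rises and 12 of the 54 falls passed without any 1 library. On the unnormalised scale, leaving out 1 library at a time (an alternative chosen after seeing the data) kept at least 237 of the 238 rises and at least 53 of the 54 falls.

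**Figure D1:**
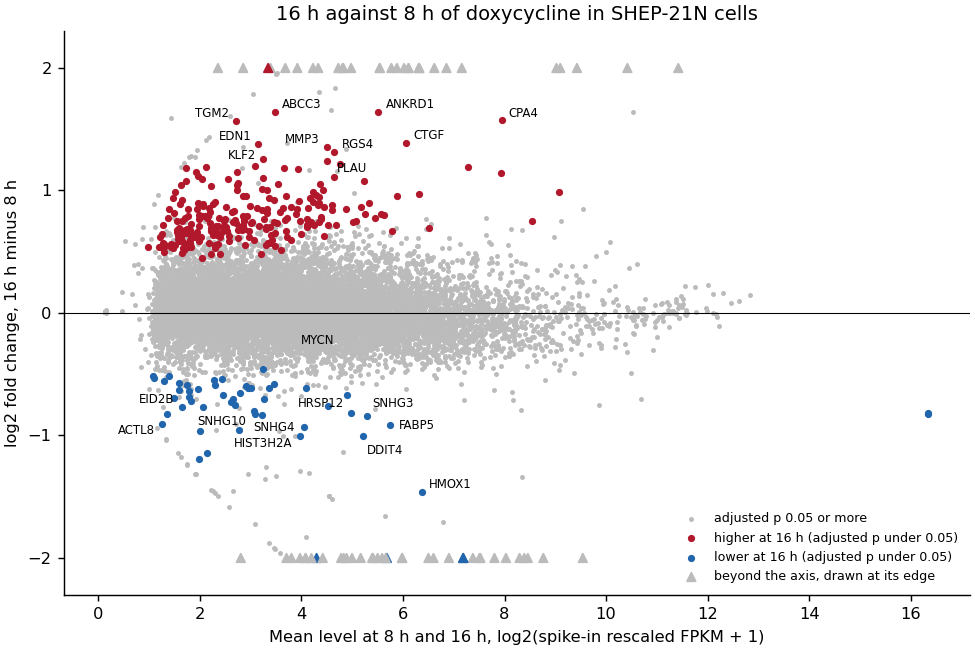
Each point is 1 of the 11867 tested genes, with the mean level of both times on the x axis (log2 of rescaled FPKM + 1) and the log2 fold change of 16 h over 8 h on the y axis; red and blue points are the 238 rises and 54 falls, and triangles lie beyond the axis. The rises span the range of levels, MYCN lies among the grey points, and the blue points at the far right are the near-identical copies MIR1244-2 and MIR1244-3.

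The promoters of CTGF, ANKRD1 and EGR1 are shown because these genes, which rose, are textbook targets of YAP with TEAD (CTGF, ANKRD1) and of SRF (EGR1). They were chosen after their values were seen. Each sequence is the 250 bases before the transcription start from RefSeq (GRCh38.p14, while the deposited values were made on hg19), with GGAATG in capitals for the first pair and the CArG box in capitals for EGR1. The CTGF window (RefSeq symbol CCN2) is chr6:131951373-131951622 on the minus strand. The ANKRD1 window is chr10:90921088-90921337 on the minus strand, and that of EGR1 is chr5:138465229-138465478 on the plus strand.
CTGF: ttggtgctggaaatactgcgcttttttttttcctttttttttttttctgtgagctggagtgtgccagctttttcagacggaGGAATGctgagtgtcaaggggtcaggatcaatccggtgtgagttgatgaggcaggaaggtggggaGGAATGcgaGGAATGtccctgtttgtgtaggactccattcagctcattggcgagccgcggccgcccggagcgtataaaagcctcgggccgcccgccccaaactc
ANKRD1: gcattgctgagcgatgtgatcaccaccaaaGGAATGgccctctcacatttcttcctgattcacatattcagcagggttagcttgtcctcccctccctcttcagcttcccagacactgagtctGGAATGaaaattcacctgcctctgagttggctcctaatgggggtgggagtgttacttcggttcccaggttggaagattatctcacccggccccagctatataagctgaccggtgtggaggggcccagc
EGR1: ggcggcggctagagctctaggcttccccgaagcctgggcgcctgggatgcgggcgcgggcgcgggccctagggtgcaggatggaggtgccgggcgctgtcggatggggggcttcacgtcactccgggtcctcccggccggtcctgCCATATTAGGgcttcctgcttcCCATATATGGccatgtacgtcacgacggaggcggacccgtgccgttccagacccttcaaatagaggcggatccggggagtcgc
The CTGF window holds 3 copies of GGAATG, whose first bases lie 169, 104 and 95 bases before the start, and that of ANKRD1 holds 2, at 220 and 128 bases. The EGR1 window holds 2 CArG boxes, at 105 and 83 bases. The CArG box was searched only as the exact pattern CCWWWWWWGG, with W for A or T. Boxes with another base in it were not searched. The exact pattern was not present in the windows of KLF2, JUN, KLF6, MAFF, DUSP1 and ACTA2, which also rose. Of all 35116 RefSeq windows of this length, 11.9% hold GGAATG on either strand and 1.16% the exact CArG pattern. Windows were found for 7 of the 10 largest rises; GGAATG on either strand was also present in that of CPA4 and in at least 1 of the 3 windows of EDN1, and absent from those of RGS4, KLF2 and PLAU. Among the 10 largest falls GGAATG was present in the window of SNHG3. It was absent from those of DDIT4, HIST3H2A, SNHG4, ACTL8, SNHG10 and EID2B, and the others had no window. Among all genes looked at, TGANTCA (AP-1, N any base) was present for ANKRD1, CPA4 and F3. CACGTG (E-box) was present for DUSP1, KLF6, MAFF and TGFB2, and for ACTL8, which fell. Of all windows 6.57% hold TGANTCA and 6.34% CACGTG. A match describes letters in a window, not a bound site.

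The 10 largest rises came from 231 genes that passed, had all 16 h libraries above all 8 h libraries and were neither small nor uncharacterised RNAs. Of all tested genes, 763 (6.43%) had all 16 h libraries above and 399 (3.36%) all below those of 8 h. ANKRD1, a nuclear and sarcomeric ankyrin repeat protein induced by tension, stood at 21.4, 23.9 and 17.8 rescaled FPKM at 8 h and at 53.4, 81.8 and 70.1 at 16 h. The lowest 16 h library was thus above the highest 8 h library by more than the spread within either time. The log2 fold change was 1.64 (SE 0.165, adjusted p = 2.77e-05). CTGF, the matricellular protein also called CCN2, went from 34.3, 39.3 and 32.9 to 78.0, 113 and 95.0 (log2 fold change 1.39, SE 0.177, adjusted p = 0.000261). EDN1, which encodes the vasoconstrictor and growth peptide endothelin 1, went from 4.49, 3.93 and 3.33 to 9.71, 13.9 and 12.1 (1.38, SE 0.140, adjusted p = 2.77e-05). In each of these genes the groups were separate and 16 h number 0 was the lowest of its time, as it was in the library medians.

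ABCC3, an export pump for organic anions, had 3.96, 5.03 and 4.07 rescaled FPKM at 8 h and 12.8, 18.7 and 16.0 at 16 h (log2 fold change 1.64, SE 0.149, adjusted p = 1.83e-05). TGM2, the tissue transglutaminase that crosslinks matrix proteins, had 2.54, 2.46 and 1.93 at 8 h and 7.48, 10.3 and 8.76 at 16 h (1.57, SE 0.159, adjusted p = 2.77e-05). CPA4 was the most abundant of the 10 largest rises: the carboxypeptidase stood at 118, 138 and 107 at 8 h and at 288, 459 and 357 at 16 h (1.57, SE 0.195, adjusted p = 0.000251). None of these libraries overlapped between the times.

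The stromelysin MMP3, a secreted protease that cleaves matrix, had a mean of 11.8 ± 2.15 rescaled FPKM at 8 h and 31.7 ± 5.12 at 16 h (log2 fold change 1.35), and PLAU, the urokinase that activates plasminogen, had 12.5 ± 1.34 and 31.1 ± 5.48 (1.24). RGS4, which speeds the shut-off of G protein signalling, had 13.3 ± 2.37 and 34.8 ± 6.35 (1.32). KLF2, a Krüppel-like transcription factor known from flow-exposed endothelium, had 4.56 ± 0.344 and 12.5 ± 2.66 (1.26). Adjusted p of these 4 genes lay between 0.000155 for RGS4 and 0.000506 for PLAU. All 10 passed without any 1 library, with a highest adjusted p of 0.00571.

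**Figure D2:**
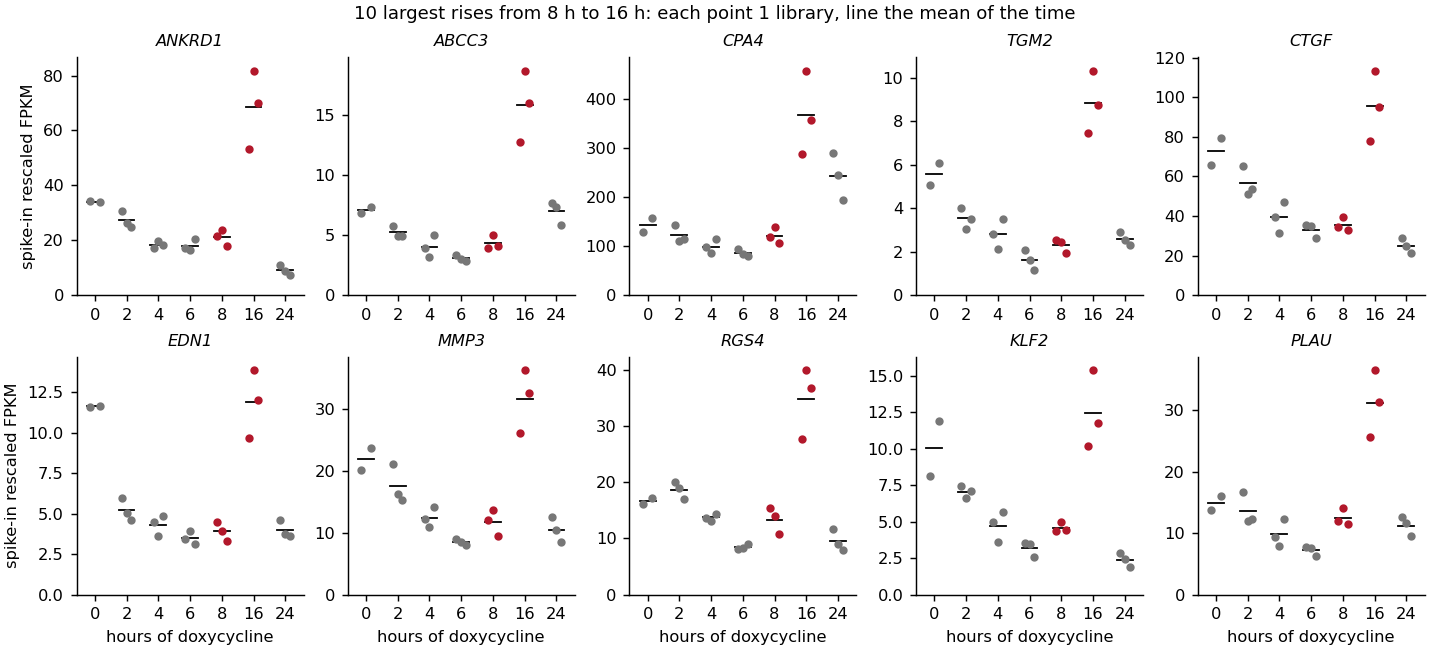
Rescaled FPKM of the 10 largest rises in every SHEP-21N library (points) against hours of doxycycline, with the mean of each time as a line and the compared 8 h and 16 h libraries in red. All 16 h points lie above all 8 h points, and the means at 6 h and 24 h lie below that at 16 h in all 10 genes.

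The first gene list holds known targets of YAP and TEAD together with YAP1, WWTR1, TEAD1 and TEAD4, the genes of the factors themselves. Of 20 tested, 7 rose, none fell and the median log2 difference was 0.398, against 2.01% of all genes and a median of 0.01. Besides ANKRD1 and CTGF these were CYR61, F3, TGFB2, CRIM1 and NUAK2, the first of which is the matricellular relative of CTGF. CYR61 stood at 149, 169 and 133 rescaled FPKM at 8 h and at 266, 419 and 327 at 16 h (log2 fold change 1.14, SE 0.199, adjusted p = 0.00366). F3, tissue factor, the trigger of blood clotting, had 5.69 ± 0.776 and 11.1 ± 2.39 (0.84, adjusted p = 0.00283). TGFB2, a TGF-beta ligand, had 11.6 ± 1.10 and 24.1 ± 4.60 (0.99, adjusted p = 0.000511). The genes of the factors did not pass: YAP1 differed by -0.11 (adjusted p = 0.93), WWTR1, which encodes TAZ, by -0.23 (0.74), TEAD1 by 0.16 (0.83) and TEAD4 by 0.15 (0.92). On unnormalised FPKM 14 of the 20 were higher and 1, WWTR1, lower. Of all genes 15% were higher and 13.2% lower on that scale. These shares, and the 2.01% that rose and 0.455% that fell on the rescaled scale, serve every list and family below. Without 8 h number 0, 8 h number 2, 16 h number 1 or 16 h number 2, 5 of the 7 passed; the calls lost were those of CRIM1 and NUAK2, with adjusted p of up to 0.175. The called members beyond ANKRD1, CTGF, TGFB2 and F3 were named after their values were seen, as were JUN, IER3 and ETV5 among the genes below.

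Early response genes, mostly transcription factors, are switched on within minutes of a growth signal without new protein synthesis. Of 17 tested, 6 rose and none fell (median log2 difference 0.407): KLF2, EGR1, MAFF, KLF6, IER3 and JUN. EGR1, a zinc finger factor, stood at 1.84, 1.78 and 1.62 rescaled FPKM at 8 h and at 3.64, 4.27 and 3.97 at 16 h (log2 fold change 0.85, SE 0.152, adjusted p = 0.00406). JUN, a core subunit of AP-1, had 17.0, 18.0 and 14.0 at 8 h and 23.5, 38.2 and 29.5 at 16 h (0.84, SE 0.189, adjusted p = 0.0207). The libraries of both genes were separate between the times. FOSL1, an AP-1 partner of JUN, had 57.7 ± 6.56 and 81.6 ± 19.1 and did not pass (0.47, adjusted p = 0.387). JUNB (-0.36, adjusted p = 0.62) and NR4A1 (-0.20, adjusted p = 0.72) were the members below 0. On unnormalised FPKM 10 of the 17 were higher and these 2 lower. Without 16 h number 1, 2 of the 6 rises passed, and without 16 h number 2, 3 did. The calls of EGR1 and KLF2 held without any 1 library, while those of JUN, KLF6, MAFF and IER3 did not (adjusted p of up to 0.135, 0.0818, 0.0607 and 0.079).

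The ERK kinases are restrained by phosphatases that their own signal induces, and several of these rose. Of 14 tested genes of ERK feedback and output, 5 rose and none fell (median log2 difference 0.460). DUSP1, a nuclear phosphatase of MAP kinases, stood at 15.9, 17.2 and 12.5 rescaled FPKM at 8 h and at 29.7, 45.0 and 36.0 at 16 h (log2 fold change 1.22, SE 0.177, adjusted p = 0.000855). DUSP5 had 2.91 ± 0.0558 and 5.20 ± 0.979 (0.65, adjusted p = 0.0236), and DUSP4 had 0.856 ± 0.126 and 1.70 ± 0.325 (0.54, adjusted p = 0.0228). CCND1, the D cyclin that growth signals induce, had 24.2 ± 3.43 and 41.5 ± 8.05 (0.75, adjusted p = 0.0228), and the ETS factor ETV5 had 3.50 ± 0.784 and 6.15 ± 1.07 (0.67, adjusted p = 0.0403). On the unnormalised scale 10 of the 14 were higher, and DUSP2 and DUSP7 were lower. DUSP1 alone held its call without any 1 library. Without 8 h number 0, 8 h number 2, 16 h number 1 or 16 h number 2 it was the only member to pass, and adjusted p of the other 4 reached 0.135 for DUSP4, 0.142 for DUSP5, 0.151 for CCND1 and 0.245 for ETV5. CCND1 was also the 1 of 17 tested genes of the list of D cyclins, kinase inhibitors and the G1 phase that passed.

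Secreted signals rose in several families. Of 17 tested growth factor ligands and IGF axis genes, 4 rose and none fell (median log2 difference 0.282). Among these were EDN1, HBEGF and IGFBP5. HBEGF, a ligand of the EGF receptor, had 19.8 ± 2.32 and 36.9 ± 8.44 (0.85, adjusted p = 0.0073). IGFBP5, an IGF-binding protein, had 4.26 ± 0.529 and 8.16 ± 1.56 (0.79, adjusted p = 0.00437). Of 13 tested cytokine and NF-kB target genes, 3 rose and none fell (median 0.252): the pattern recognition protein PTX3 (9.65 ± 0.920 and 19.3 ± 3.86, adjusted p = 0.00138), the monocyte attractant CCL2 (3.59 ± 0.372 and 7.14 ± 0.449, adjusted p = 0.00177) and the IL-6 family cytokine LIF (3.16 ± 0.344 and 5.84 ± 1.39, adjusted p = 0.0207). NFKB1 and NFKBIA, the core factor and its inhibitor, differed by 0.07 and -0.01 and did not pass. The call of HBEGF was lost without 8 h number 2 or 16 h number 1 (adjusted p of up to 0.0564), and that of LIF without 8 h number 0 or 2 or 16 h number 1 or 2 (up to 0.135).

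In the TGF-beta and BMP list 3 of 13 tested genes rose and none fell (median log2 difference 0.325), and all 13 differences were above 0, as were 6233 of all 11867 genes. TGFB2, given above, was among them, as was NOG. NOG, the secreted BMP antagonist noggin, had 1.14 ± 0.0518 and 3.08 ± 0.659 (0.92, adjusted p = 0.00104). The receptor genes TGFBR1 and TGFBR2 differed by 0.04 and 0.12 and did not pass. Without 16 h number 0, 5 members passed.

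Of 21 tested matrix genes 5 rose and none fell (median log2 difference 0.352). COL8A1, a short-chain collagen, stood at 8.94, 10.0 and 7.01 rescaled FPKM at 8 h and at 12.5, 19.0 and 15.3 at 16 h (log2 fold change 0.78, SE 0.149, adjusted p = 0.00693). TNC, the adhesion-modulating glycoprotein tenascin C, had 24.5 ± 3.19 and 45.7 ± 7.36 (0.86, adjusted p = 0.0162). The collagen VI chains COL6A1 (0.80, adjusted p = 0.034) and COL6A2 (0.78, adjusted p = 0.0435) and fibronectin FN1 (68.2 ± 8.83 and 112 ± 19.3, 0.70, adjusted p = 0.0442) completed the group. The fibrillar collagens COL1A1 and COL3A1 differed by 0.34 and 0.10 and did not pass. On unnormalised FPKM 16 of the 21 were higher. No member passed on the rescaled scale without 8 h number 2 or without 16 h number 1, 1 did without 8 h number 0 or 16 h number 2, and adjusted p reached 0.0557 for COL8A1, 0.102 for TNC, 0.169 for COL6A1 and 0.22 for COL6A2 and FN1.

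Contractile actin genes, many of them SRF targets, gave 2 calls among 22 tested actomyosin genes, against 2.01% of all genes that rose. All 22 differences were above 0 (median log2 difference 0.309), as were 6233 of all 11867 genes. The rises were ACTA2, smooth muscle actin, from 12.7, 14.9 and 11.9 to 21.7, 33.7 and 27.7 rescaled FPKM (log2 fold change 1.00, SE 0.232, adjusted p = 0.0241), and the actin-binding TAGLN from 52.1, 60.9 and 44.9 to 83.2, 133 and 100 (0.97, SE 0.229, adjusted p = 0.0266). The abundant cytoplasmic actins ACTB and ACTG1 differed by 0.23 and 0.22 (adjusted p = 0.86 for both). On unnormalised FPKM 17 of the 22 were higher and none lower, against 15% and 13.2% of all genes. Both calls were lost without 8 h number 0 or 2 or 16 h number 1 or 2 (adjusted p of up to 0.156).

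Cell-surface and protease families were looked at after the values had been seen, by the start of their gene symbols, and their counts describe these libraries only. Of 11 tested integrin subunits, the receptors that bind matrix, 5 rose and none fell, where 2.01% of all genes rose. ITGA3, which pairs with beta 1 to bind laminin, stood at 88.2, 106 and 82.9 rescaled FPKM at 8 h and at 171, 262 and 212 at 16 h (log2 fold change 1.20, SE 0.204, adjusted p = 0.00309). ITGB3, a subunit of the vitronectin receptor, had 1.01 ± 0.117 and 3.59 ± 0.541 (1.19, adjusted p = 0.000261). The other three were ITGA7 (0.82), ITGB5 (0.81) and ITGA6 (0.74). ITGB1, the subunit that most integrins share, had 146 ± 12.0 and 187 ± 36.3 and did not pass (0.34, adjusted p = 0.477). Of 11 tested matrix metalloproteinases, 5 rose and none fell: MMP3, MMP10 (6.73 ± 0.802 and 16.6 ± 3.04, 1.18), MMP19 (0.71), MMP11 (0.61) and MMP24 (0.76). On unnormalised FPKM 6 of the integrins and 9 of the metalloproteinases were higher, against 15% of all genes. Of 5 genes of plasminogen activation 3 rose, among them PLAU and the tissue activator PLAT (11.4 ± 1.26 and 21.7 ± 3.10, 0.86, adjusted p = 0.00572). Calls of ITGB5, ITGA6, MMP19, MMP11 and MMP24 were lost without 8 h number 2, and all but that of ITGA6 without other libraries too, with adjusted p without 8 h number 2 of 0.114, 0.0546, 0.051, 0.114 and 0.227.

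Among metabolic genes the calls stand beside 2.01% of all genes that rose and 0.455% that fell. Of 24 tested genes of cholesterol synthesis and uptake 1 rose: TM7SF2, a sterol reductase, from 1.61, 1.71 and 1.56 to 4.30, 4.98 and 5.82 rescaled FPKM (log2 fold change 1.19, SE 0.132, adjusted p = 8.31e-05), a call that held without any 1 library. INSIG1, the sterol sensor that holds back SREBP, had 18.7 ± 3.51 and 11.3 ± 2.11 and just missed the threshold (-0.68, adjusted p = 0.0529). Of 23 tested glycolysis genes 3 rose, ENO2 (6.47 ± 1.03 and 13.4 ± 3.58, 0.93, adjusted p = 0.0082), the lactate exporter SLC16A3 (1.04 ± 0.311 and 2.58 ± 0.545, 0.81, adjusted p = 0.00775) and ALDOC (1.26 ± 0.275 and 2.59 ± 0.721, 0.66, adjusted p = 0.0294). Their abundant relatives did not: ENO1 differed by -0.20, SLC16A1 by -0.09 and ALDOA by -0.08. The median of the glycolysis list was -0.059. On unnormalised FPKM 4 glycolysis genes were higher and 3 lower, and of the cholesterol genes 3 and 2. Of all genes 15% were higher and 13.2% lower on that scale. None of the 3 glycolysis rises passed without 16 h number 1 and 1 did without 8 h number 2 (adjusted p of up to 0.182).

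Of 18 tested hypoxia genes P4HA2 alone rose (12.1 ± 1.82 and 20.7 ± 4.15 rescaled FPKM, log2 fold change 0.72, adjusted p = 0.0392). It encodes a prolyl hydroxylase that collagen needs for folding. Of all genes 2.01% rose. Among 13 clock genes the repressor BHLHE41 alone rose (1.19 ± 0.256 and 2.18 ± 0.354, 0.54, adjusted p = 0.0353). Among 17 interferon response genes BST2, a membrane protein that tethers budding viruses, alone rose, from 1.49, 1.85 and 0.703 to 2.86, 5.29 and 4.46 (1.15, SE 0.221, adjusted p = 0.00693). None of the 15 tested MHC class I genes and none of the 20 of endoplasmic reticulum chaperones passed. Above 0 were all 15 and 19 of the 20 differences (medians 0.200 and 0.211), as were 6233 of all 11867 genes. On unnormalised FPKM 8 interferon, 6 MHC class I and 13 chaperone genes were higher and none of these lists had a lower member. Among all genes 15% were higher and 13.2% lower on that scale. HSPA5, the chaperone BiP, had 193 ± 32.9 and 268 ± 51.1 on the rescaled scale (0.47, adjusted p = 0.27). Each of the 3 calls was lost without 8 h number 2 or 16 h number 1, among other libraries for P4HA2 and BHLHE41, with adjusted p of up to 0.208 for P4HA2, 0.214 for BHLHE41 and 0.0558 for BST2.

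**Figure D3:**
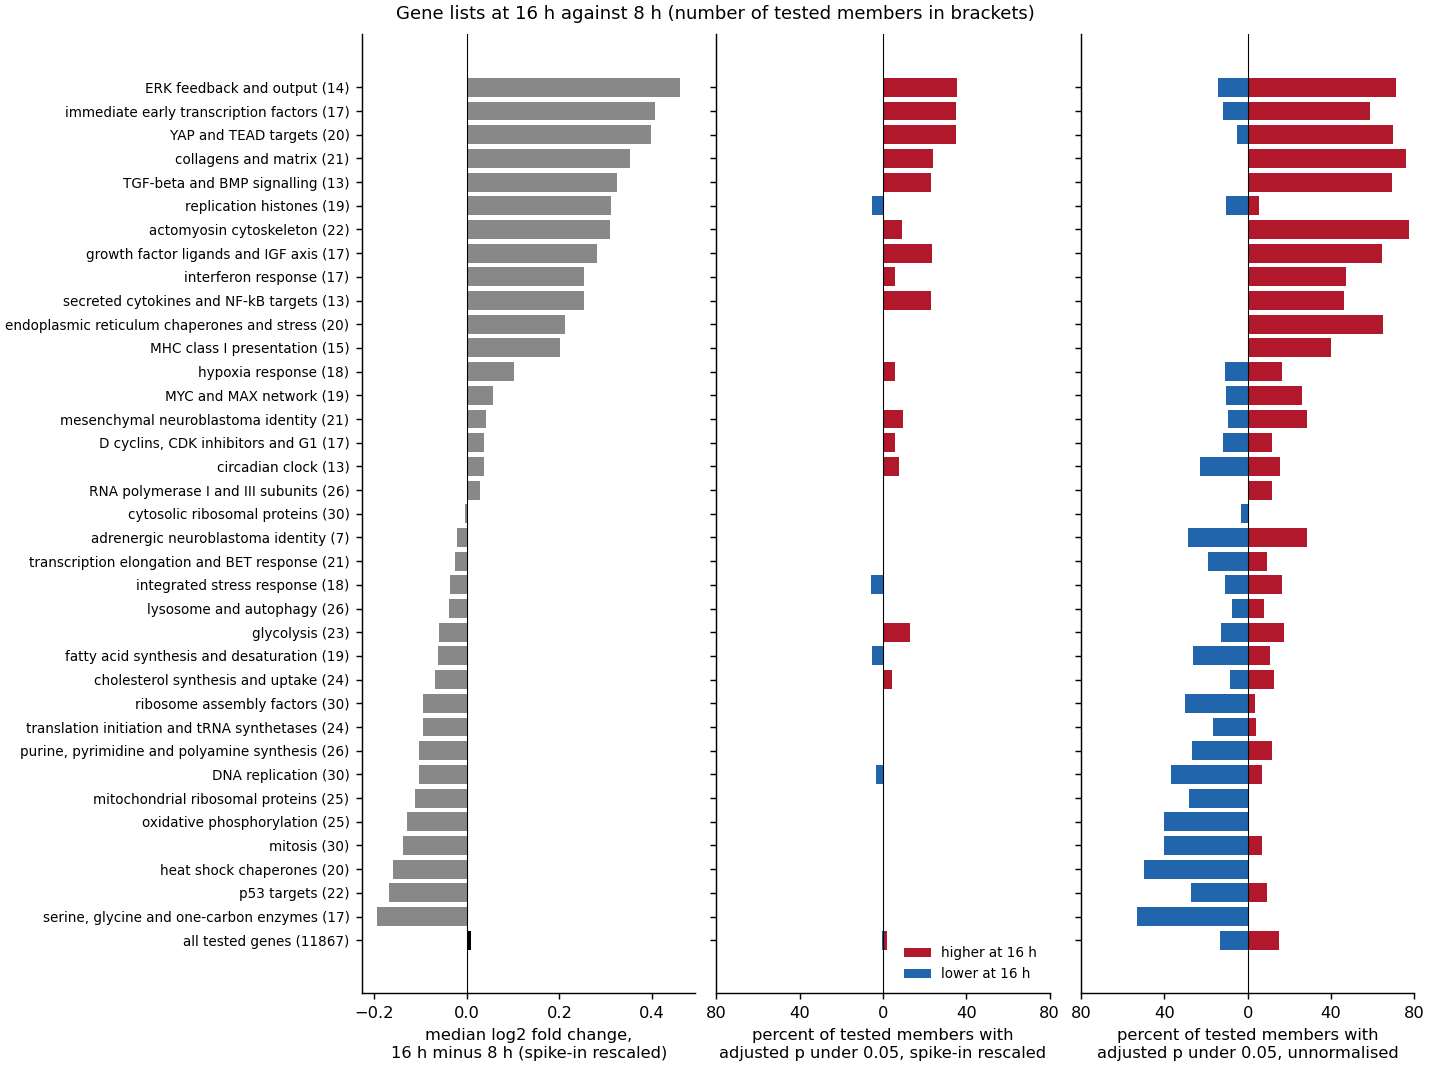
For each gene list with at least 5 tested members (numbers in brackets) the bars give the median log2 fold change of 16 h over 8 h, and the percent of members higher (red) and lower (blue) at adjusted p under 0.05 on the rescaled and on the unnormalised scale. Lists of ERK feedback, early response factors and YAP targets have the highest medians, 0.460, 0.407 and 0.398, and that of serine and one-carbon enzymes the lowest, -0.192.

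Only 27 of the 54 falls were outside the small and uncharacterised RNAs, and all 27 had separate libraries. HMOX1 stood at 108, 148 and 105 rescaled FPKM at 8 h and at 32.8, 54.8 and 42.7 at 16 h. The lowest 8 h library lay above the highest 16 h library by more than the range within either time, and the log2 fold change was -1.46 (SE 0.229, adjusted p = 0.00138). DDIT4, also called REDD1, had 45.9, 59.6 and 40.8 at 8 h and 19.7, 25.1 and 26.1 at 16 h (-1.01, SE 0.210, adjusted p = 0.0122). FABP5, a carrier of fatty acids, had 75.8, 77.4 and 53.6 at 8 h and 26.6, 45.2 and 37.5 at 16 h (-0.92, SE 0.213, adjusted p = 0.0256). DDIT4 was the 1 of 18 integrated stress response genes and FABP5 the 1 of 19 fatty acid genes that passed. ATF4, the master factor of that stress response, had 161 and 163 as its means and did not pass.

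**Figure D4:**
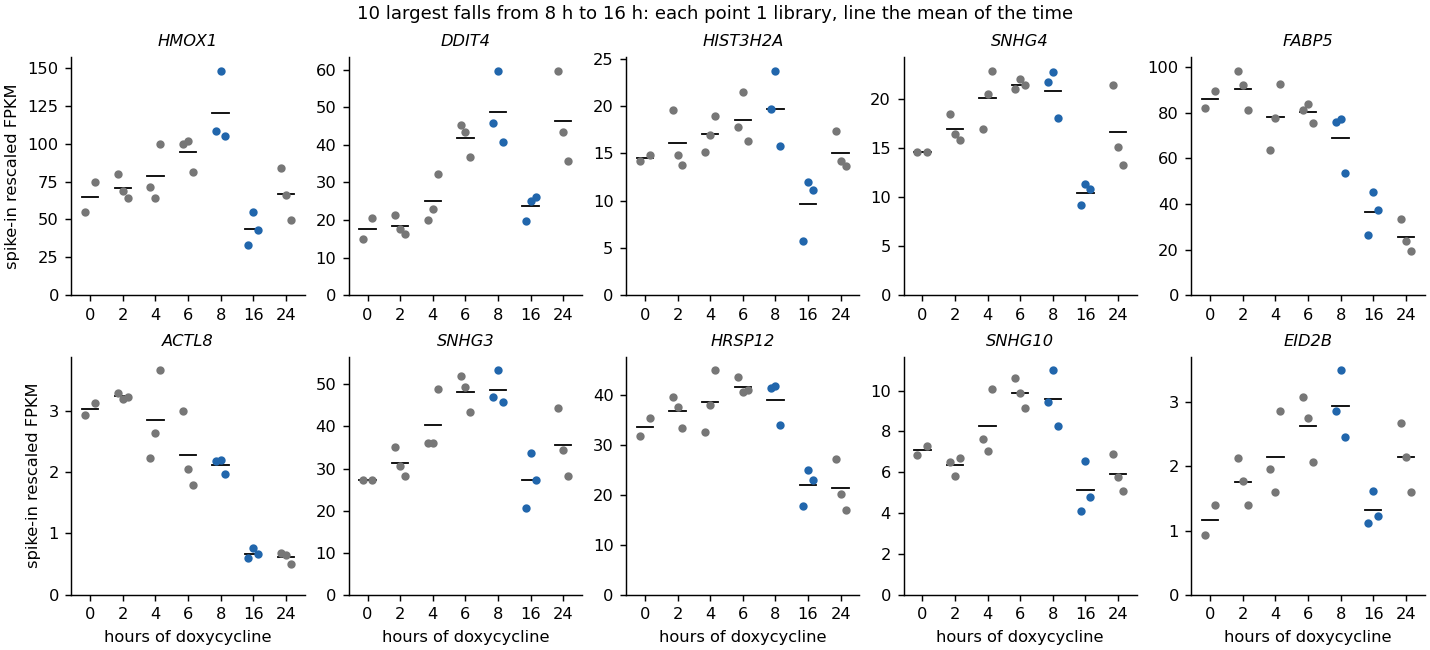
Rescaled FPKM of the 10 largest falls in every SHEP-21N library (points) against hours of doxycycline, with the mean of each time as a line and the compared 8 h and 16 h libraries in blue. All 16 h points lie below all 8 h points; HMOX1 and DDIT4 have higher 24 h means than 16 h means, FABP5 and ACTL8 lower ones.

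Of the 10 largest falls, 3 were transcripts that carry small nucleolar RNAs in their introns. SNHG4 stood at 21.7, 22.7 and 18.1 rescaled FPKM at 8 h and at 9.14, 11.3 and 10.8 at 16 h (log2 fold change -0.93, SE 0.155, adjusted p = 0.00245). SNHG3 had 48.7 ± 4.12 and 27.2 ± 6.58 (-0.84, adjusted p = 0.0171), and SNHG10 had 9.58 ± 1.37 and 5.14 ± 1.25 (-0.80, adjusted p = 0.00684). Of all 14 tested SNHG transcripts and GAS5, a family looked up after these values were seen, these 3 fell, 12 differences were below 0 and the median was -0.251. Of all tested genes 0.455% fell and 6233 of 11867 had a difference above 0. GAS5, the most studied of them, had 145 ± 15.5 and 151 ± 30.8 (0.04). On unnormalised FPKM 7 of the 14 were lower and none higher.

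The remaining 4 large falls were HIST3H2A, ACTL8, HRSP12 and EID2B. ACTL8, an actin-like protein of the testis, had 2.18, 2.20 and 1.97 rescaled FPKM at 8 h and 0.593, 0.755 and 0.656 at 16 h, a gap several times the range within either time (log2 fold change -0.90, SE 0.141, adjusted p = 0.00138). HIST3H2A, a histone H2A gene, had 19.7 ± 3.99 and 9.63 ± 3.39 (-1.0, adjusted p = 0.0125) and was the 1 of 19 tested histone genes that passed. The histone list as a whole lay the other way, with a median log2 difference of 0.312. In it 14 of the 19 differences were above 0, as were 6233 of all 11867 genes. HRSP12, a deaminase that clears reactive imines, had 39.0 ± 4.31 and 21.9 ± 3.66 (-0.81, adjusted p = 0.0125), and EID2B, a repressor of histone acetyltransferases, had 2.94 ± 0.524 and 1.32 ± 0.264 (-0.76, adjusted p = 0.0237). HMOX1, SNHG4, ACTL8 and SNHG10 held their calls without any 1 library. The call of DDIT4 was lost when 8 h number 1 was left out (adjusted p = 0.0704), HIST3H2A and HRSP12 without 8 h number 0 or 1 (up to 0.0727), FABP5 and EID2B without 8 h number 0 or 1 or 16 h number 0 or 2 (up to 0.129), and SNHG3 without any of the 6 libraries except 16 h number 1 (up to 0.0758).

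Small and uncharacterised RNAs (symbols of the kinds MIR, SNOR, LOC, LINC, antisense and the like) were 27 of the 54 falls (50.0%), 7 of the 238 rises (2.94%) and 904 of all 11867 tested genes (7.62%). Among the falls 6 had antisense symbols and 11 LOC symbols. FOXD2-AS1 (log2 fold change -1.19, adjusted p = 0.000318) and LOC100505761 (-1.14, adjusted p = 0.000377) held their calls without any 1 library. So did LOC202781, LOC100128822, LINC00338 and HNRNPU-AS1, all named after their values were seen. The other small or uncharacterised falls lost their calls without at least 1 library. The libraries were stranded per the labels' protocols, but no source used here says whether counting used the strand, so reads of antisense RNAs and of their partners may not be separated. The MIR1244-2 and MIR1244-3 entries, near-identical copies, stood at 105437 ± 12088 and 106003 ± 12230 rescaled FPKM at 8 h and at 60623 ± 14951 and 60820 ± 14823 at 16 h, levels that cannot be told apart between the copies. Both calls held only when the library left out was 16 h number 1 (highest adjusted p 0.201 and 0.203). SNORD62A passed (adjusted p = 0.0266) although its libraries overlapped: it had 542, 325 and 0.109 at 8 h, and its 16 h values of 0.0967 to 0.112 are those the rescaled table gives to genes listed at 0. The SNORD62A call held only when the library left out was 8 h number 2 (highest adjusted p 0.17). SNORA7A, the 1 small nucleolar RNA among the rises, lay at that floor in all 8 h libraries and at 14.5, 25.4 and 14.7 at 16 h, and its call (adjusted p = 0.0364) was lost without any 1 of the 6 libraries (0.0554 to 0.153).

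Genes of growth and division, the classical output of MYC proteins, gave few calls on the rescaled scale. Of all genes 2.01% rose and 0.455% fell. CCNE2, a cyclin of the G1 to S transition, fell from 19.6, 20.5 and 18.1 to 10.3, 15.2 and 12.0 rescaled FPKM (log2 fold change -0.61, SE 0.145, adjusted p = 0.0288), the 1 of 30 tested DNA replication genes that passed. Its call held only when the library left out was 16 h number 1 (adjusted p of up to 0.131 otherwise). The median of that list was -0.103. E2F2, a factor that drives such genes and was named after its value was seen, fell from 6.94, 7.76 and 5.76 to 3.29, 4.23 and 3.83 (-0.71, SE 0.167, adjusted p = 0.028), a call that held only when the library left out was 8 h number 2 (highest adjusted p 0.127). No gene of the lists of mitosis (30 tested), ribosome assembly (30), cytosolic ribosomal proteins (30), mitochondrial ribosomal proteins (25), oxidative phosphorylation (25), nucleotide and polyamine synthesis (26), translation and tRNA synthetases (24), RNA polymerase I and III (26), heat shock (20), p53 targets (22) or serine and one-carbon enzymes (17) passed. The nearest were NPM1, the nucleolar histone chaperone nucleophosmin (2042 ± 321 and 1267 ± 271, -0.70, adjusted p = 0.0611), and the p53 target BTG2 (10.8 ± 1.80 and 6.48 ± 1.27, -0.67, adjusted p = 0.074).

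On unnormalised FPKM these lists, RNA polymerase I and III apart, had more lower than higher members, against 13.2% lower and 15% higher among all genes. It was 12 of 30 lower and 2 higher for mitosis, 11 and 2 of 30 for DNA replication, 10 and 0 of 25 for oxidative phosphorylation, 10 and 0 of 20 for heat shock, and 9 and 0 of 17 for serine and one-carbon enzymes. For ribosome assembly it was 9 and 1 of 30, for mitochondrial ribosomal proteins 7 and 0 of 25, and for cytosolic ribosomal proteins 1 and 0 of 30. Of the 17 one-carbon enzymes 1, CBS, had a rescaled difference above 0, and the median was -0.192. PSAT1, which makes phosphoserine, had 75.9 ± 10.8 and 54.3 ± 9.33 rescaled FPKM (-0.48, adjusted p = 0.307) and an adjusted p of 3.39e-06 without rescaling. CCNB1, the mitotic cyclin, had 269 ± 40.4 and 175 ± 36.8 (-0.63, adjusted p = 0.143) and 9.34e-08. It was 4 lower and 1 higher of 24 for translation and 6 and 2 of 22 for p53 targets, and 0 lower and 3 higher of 26 for RNA polymerase I and III subunits.

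Markers of the mesenchymal type were present at both times. The summed rescaled FPKM of 6 mesenchymal markers (VIM, FN1, SNAI2, PRRX1, CD44, TWIST1) ran from 635 to 852 at 8 h and from 677 to 1010 at 16 h, and of 21 tested mesenchymal identity genes FN1 and GLIS3 rose and none fell (median log2 difference 0.041). On unnormalised FPKM 6 were higher and 2, SIX4 and SNAI2, were lower, and the median was -0.012. GLIS3, a Krüppel-like zinc finger factor, had 7.13 ± 0.685 and 11.1 ± 1.64 (0.57, adjusted p = 0.0451), a call that held only when the library left out was 16 h number 0 (highest adjusted p 0.218). Of the adrenergic markers PHOX2A and TH were at or near 0 at both times and HAND2 had means of 41.0 and 39.0. Of 6 blood markers 4 were listed at 0 in all 6 libraries, and endothelial and Schwann or glial sums reached at most 0.939 and 1.63. The epithelial sum ran from 796 to 1140 at 8 h and from 1290 to 2120 at 16 h. It came from the simple-epithelium keratins KRT8 (525 ± 102 and 957 ± 245, 0.85, adjusted p = 0.0542) and KRT18 (408 ± 73.6 and 695 ± 172, 0.75, adjusted p = 0.0991), while EPCAM, CDH1 and KRT19 were at or below 0.217 unnormalised FPKM. The tight junction gene CLDN4, the remaining epithelial marker, had means of 15.8 and 19.1 rescaled FPKM. The part of a change in cell make-up in the keratin values was not tested.

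The earlier and later times give the setting of the change. The 238 rises had a median log2 difference from 0 h of -0.486 at 6 h, -0.297 at 8 h, 0.481 at 16 h and -0.165 at 24 h, where the median over all genes was -0.142, -0.0582, -0.0264 and -0.308. On unnormalised FPKM the 24 h median was 0.112 for the 238 and -0.038 for all genes, so the side of 0 h on which the rises lay at 24 h depends on the scale. Of the 238, 222 had a rescaled 16 h mean above that of 0 h, against 5577 of all 11867 genes. By list, the rescaled median difference of 16 h from 0 h was 0.237 for YAP targets. It was -0.0787 for early response factors and -0.142 for ERK feedback genes. CCND1 had means of 57.3 at 0 h and 41.5 at 16 h, and EGR1 4.74 and 3.96. A 24 h mean below that of 16 h was found in 232 of the 238 and in 10651 of all genes, and one at or below that of 8 h in 72 and in 10261. ANKRD1 had means of 34.0, 18.1, 21.0, 68.4 and 9.06 at 0, 6, 8, 16 and 24 h, and CTGF 72.6, 33.1, 35.5 and 95.5 up to 16 h, with its 24 h libraries between 21.3 and 28.7. CPA4 had 243 at 24 h against 121 at 8 h, and IGFBP5 went on from 8.16 at 16 h to 15.5. For the 54 falls the median difference from 0 h was 0.534 at 6 h, 0.588 at 8 h, -0.0902 at 16 h and 0.103 at 24 h, the last of which was 0.358 unnormalised. HMOX1 had means of 64.7, 94.3, 120, 43.4 and 66.5 at these times, FABP5 85.9, 80.2, 68.9, 36.4 and 25.5. These genes were chosen on the 8 h and 16 h libraries, so values that include those libraries are a description and carry no test. The 6 h and 24 h libraries entered the choice through the filter on the mean level and the shared estimate of spread, not through the contrast. Between them 191 of the 238 had a higher mean at 24 h than at 6 h and the median log2 difference was 0.377, against 2914 of 11867 and -0.179 for all genes, and for the falls it was 6 of 54 and -0.395.

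**Figure D5:**
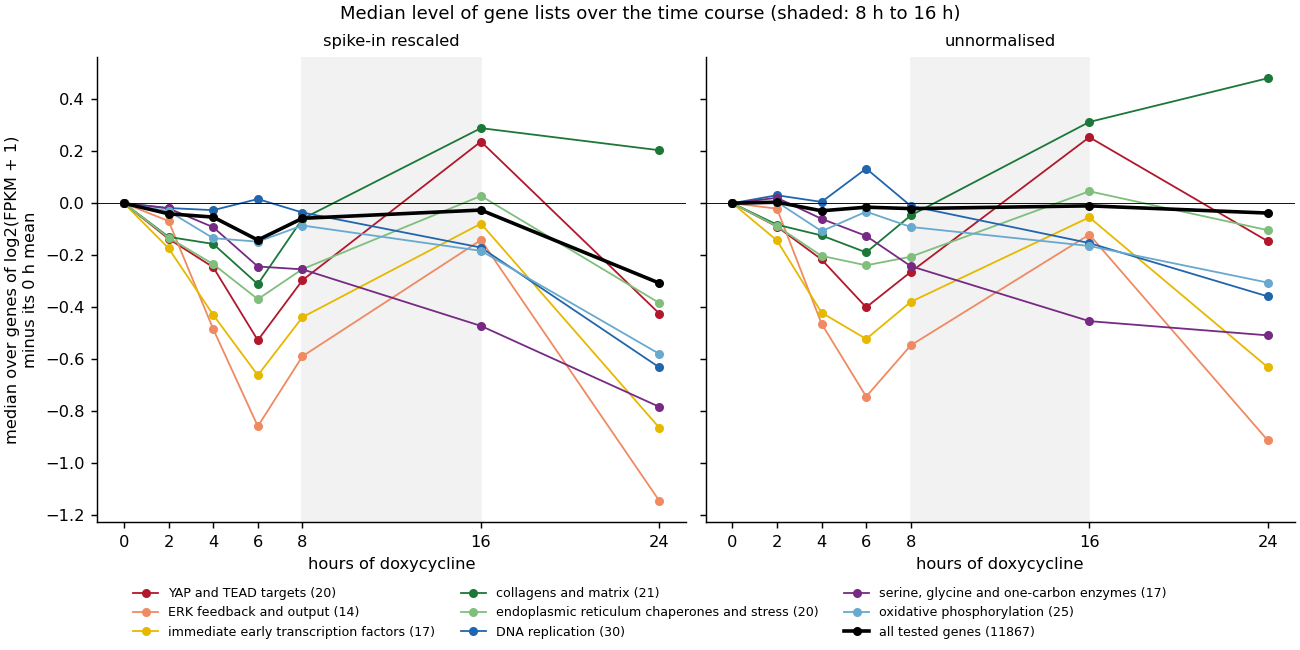
Lines give, for 8 gene lists and for all tested genes (black), the median over genes of the log2 level at each time minus that at 0 h, on the rescaled (left) and unnormalised (right) scale; the 8 h to 16 h interval is shaded. YAP targets, ERK feedback genes and early response factors are lowest at 6 h before 16 h and fall again by 24 h on both scales, while serine and one-carbon enzymes go down from 8 h to 16 h and to 24 h.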

How the data were processed

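Polyadenylated RNA of SHEP-21N cells was sequenced after ERCC spike-in RNA had been added at lysis to counted cells, per the labels' protocols. The submitters' processing notes name HISAT, Cufflinks 2.0.0 and the build hg19. Deposited were FPKM, in an unnormalised table and a table that the authors rescaled to the spike-ins, each of 23713 entries with 92 spike-ins. No source used here gives the rescaling method. Of the unnormalised values of the 6 libraries 31.1% are 0, and these stand at 0.0839 to 0.127 in the rescaled table, which is thus the floor of that table. FPKM hold no read numbers, so depth and counting error are unknown. Spike-in totals of the 6 libraries ran from 26061 to 39698 unnormalised and from 33717 to 34327 rescaled, the lowest and highest unnormalised ones in 16 h numbers 1 and 0. Replicates correlated across genes with r of 0.962 to 0.971, and no pair was identical.

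Spike-ins and genes with a mean under 1 unnormalised FPKM over the 20 SHEP-21N libraries were left out. To log2(rescaled FPKM + 1) of all 20 libraries limma 3.58.1 (R 4.3.3) fitted a mean for each of the 7 times (moderated variances, intensity trend). The fit was tested on simulated data with independent noise for each gene. Those data held no shift of a whole library, so the effect of such shifts was not tested there. The contrast 16 h minus 8 h was tested two-sided with Benjamini and Hochberg adjustment over 11867 genes. Tables and figures were made with Python 3.11.15, pandas 2.3.3, numpy 2.4.6 and matplotlib 3.10.9. Columns were matched to times by name; their numbers only tell libraries apart.

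The text names MYCN, the 10 genes that rose most and the 10 that fell most of those that passed and had no overlap between the times (231 and 27 eligible, small and uncharacterised RNAs left out), and up to 4 members with the smallest p of each of 41 gene lists, of which 4 had no tested gene. The comparison, the genes and the lists were chosen with earlier results of these data known, so no list was tested as a set. Some list members are not reported here. Alternatives were unnormalised FPKM, median-centred libraries, a pseudocount of 0.1, no filter (19003 genes), the 6 libraries alone, a replicate block and leaving out each library.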

Additional observations from a re-analysis of the deposited data

How the results depend on the processing

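No gene called higher or lower was called in the other direction under any alternative tried. Among the genes chosen by the naming rule, RPL7, RPL18 and RPL11, none of them called, changed sign without 1 library in 6 fits (log2 difference -0.078 to 0.0629). Genes named outside that rule that were not called had no such check. The rescaled counts were 292 changed, 238 higher and 54 lower. They became 3355, 1783 and 1572 on unnormalised FPKM, 3030, 1362 and 1668 with libraries centred on their medians, and 485, 396 and 89 without the filter. Leaving out 1 library at a time gave 121 to 459 changed, 84 to 433 higher and 16 to 38 lower genes, and a median change of all genes of -0.0976 to 0.142. A pseudocount of 0.1 (287 changed) and the 6 libraries alone (315) moved the counts by less than 1.5 times. Of the 238 rises 188 and of the 54 falls 39 were also called with the 6 libraries alone. On unnormalised FPKM leaving out 1 library, chosen after seeing the data, gave 2515 to 2840 changed, 1352 to 1571 higher and 1163 to 1321 lower genes.

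The numbers at the end of the column names run from 0 to 2 while the labels run from 1 to 3, and deviations of same-numbered libraries of 8 h and 16 h correlated at 0.0322, -0.052 and -0.117, so the numbers were not taken as pairs. With a replicate block on them 202 genes changed, 165 higher and 37 lower, all among the calls above. Depth cannot be set against any of this, since FPKM hold no read numbers.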
